A study of Homo sapiens with 29 samples.

Results

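RNA polymerase III makes a small set of short, abundant non-coding RNAs, and 8 of their genes are described here: RN7SK, RMRP, RPPH1, RN7SL1, RN7SL2, VTRNA1-1, VTRNA1-2 and VTRNA1-3. The genes were taken by name out of 64449 annotated gene entries. A gene was counted with a factor when a peak of that factor overlapped the gene or lay within 1 kb of its start by at least 1 bp. Occupancy of the INO80 chromatin remodelling complex had been mapped by chromatin immunoprecipitation followed by sequencing in HepG2 and Huh7, which are 2 lines of human liver cancer cells. In HepG2 the mapped proteins were INO80 (3 libraries), the ATPase that slides nucleosomes, its complex subunit MCRS1 (2 libraries), the ATPases RUVBL1 and RUVBL2 (2 libraries each), which INO80 shares with other chromatin complexes, and the transcription factor YY1, whose peaks came from public ENCODE reads put through the same steps. In Huh7 they were INO80, MCRS1, RUVBL2 and YY1, with 2 libraries each, and each line also had 2 input libraries. The antibody libraries came from cells for which the labels give no treatment, and 8 further HepG2 libraries of acetylated histone H3 and input, from cells given EPZ-6438 or DMSO, were not used here.

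Most genes read by RNA polymerase III depend on control elements inside the transcribed stretch, which the factor TFIIIC recognises. RN7SK, RMRP and RPPH1 instead have promoters that lie before the start, with a proximal sequence element bound by the SNAPc complex and a TATA box, a layout they share with the U6 gene. The signal recognition particle genes and the vault genes combine internal elements with sequences upstream of the start. The products differ in role. RN7SK is the scaffold of the particle that holds the elongation factor P-TEFb inactive. RMRP and RPPH1 are the RNA parts of RNase MRP and RNase P, which process ribosomal and transfer RNA precursors. RN7SL1 and RN7SL2 encode the RNA of the signal recognition particle, which brings ribosomes to the endoplasmic reticulum, and the vault RNAs belong to the cytoplasmic vault particle.

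On hg19, RN7SK lies on the plus strand of chromosome 6 (52860419 to 52860746) and RMRP on the minus strand of chromosome 9 (35657751 to 35658014). RPPH1 lies on the minus strand of chromosome 14 (20811259 to 20811550), inside an annotated long non-coding gene. RN7SL1 lies on the plus strand of chromosome 14 (50053298 to 50053594) within the span of the ribosomal protein gene RPS29, and RN7SL2 on the minus strand of the same chromosome (50329271 to 50329567). The vault genes follow one another on the plus strand of chromosome 5, with VTRNA1-1 at 140090860 to 140090958, VTRNA1-2 at 140098510 to 140098598 and VTRNA1-3 at 140105743 to 140105831. The annotation names 6 of the 8 genes, and RN7SL1 and RPPH1 were placed by sequence match. The RPPH1 match spans 292 bp where the RefSeq gene has 341 bp, so the ends of RPPH1 and each distance from its start are approximate.

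The 100 bases before the start are shown for the 3 genes with upstream promoters, on the strand of the gene. They are from GRCh37, the sequence of hg19. For RPPH1 they end at the matched start, and the match is shorter than the RefSeq gene. The last of these RPPH1 bases may therefore belong to the gene. Capitals mark TATAA read on either strand, which stood 32 bases before the start of RN7SK on the other strand, 33 bases before RMRP and 50 bases before the matched start of RPPH1.
RN7SK (chr6:52860319-52860418, plus strand): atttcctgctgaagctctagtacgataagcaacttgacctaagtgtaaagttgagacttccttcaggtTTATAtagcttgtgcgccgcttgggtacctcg
RMRP (chr9:35658015-35658114, minus strand): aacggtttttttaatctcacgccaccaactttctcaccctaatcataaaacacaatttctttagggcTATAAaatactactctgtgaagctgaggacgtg
RPPH1 (chr14:20811551-20811650, minus strand): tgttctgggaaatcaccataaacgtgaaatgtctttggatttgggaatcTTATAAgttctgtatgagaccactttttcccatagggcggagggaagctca

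The 3 vault genes are shown whole, with the 60 bases before each start, because they are near copies of one another that differed in which lists held a peak. Capitals mark TGACGT, the core of the cyclic AMP response element, and the core of the internal B box, in that order.
VTRNA1-1 (chr5:140090800-140090958, plus strand): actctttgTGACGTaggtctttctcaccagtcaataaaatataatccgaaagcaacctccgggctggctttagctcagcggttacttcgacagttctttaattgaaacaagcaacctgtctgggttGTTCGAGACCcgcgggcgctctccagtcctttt
VTRNA1-2 (chr5:140098450-140098598, plus strand): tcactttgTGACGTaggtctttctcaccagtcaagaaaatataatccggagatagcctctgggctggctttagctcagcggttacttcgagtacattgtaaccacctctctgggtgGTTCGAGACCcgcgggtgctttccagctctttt
VTRNA1-3 (chr5:140105683-140105831, plus strand): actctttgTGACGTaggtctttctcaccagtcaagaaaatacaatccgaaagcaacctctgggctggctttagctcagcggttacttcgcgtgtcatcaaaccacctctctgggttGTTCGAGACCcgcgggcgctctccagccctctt

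Every one of the 8 genes had a peak of every factor mapped in HepG2, while the Huh7 lists divided them. The HepG2 lists held a peak at 40 of 40 pairs of gene and factor, and the Huh7 lists at 21 of 32. All 5 HepG2 factors met at 8 of the 8 genes, and at 7.96% of all gene entries. By factor, HepG2 peaks lay at 8 of the 8 genes and 31.3% of all entries for INO80, 29.1% for MCRS1, 9.36% for RUVBL1, 19.3% for RUVBL2 and 35.7% for YY1. All 5 factors stood at 8 of the 8 genes, so the gap to all entries only follows each factor's share of all entries. That share was lowest for RUVBL1, which has the shortest HepG2 list (5518 peaks). RUVBL1 had a peak at 29.5% of the entries with INO80 in HepG2. The lists give positions on hg19 and neither height nor read depth, with 1 list per factor and line. Counts and widths therefore have no replicate error, and no difference could be tested.

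**Figure D1:**
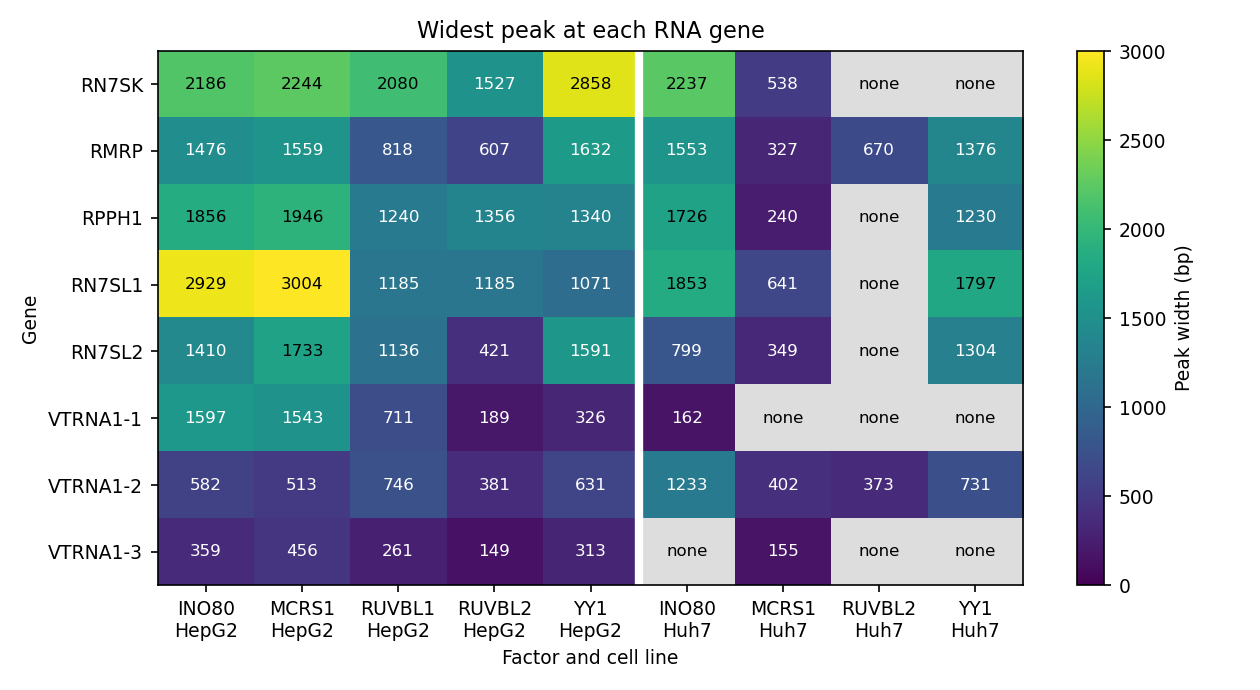
Width in bp of the widest peak at each of the 8 genes (rows) in each of the 9 peak lists (columns, HepG2 left of the white line and Huh7 right of it), with grey cells where no peak met the rule. All 40 HepG2 cells hold a peak, and the 11 empty cells lie in Huh7, 6 of them under RUVBL2.

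In Huh7, INO80 had a peak at 7 of the 8 genes and 24.1% of all entries, and MCRS1 at 7 genes and 11.3% of all entries. YY1 had a peak at 5 genes and 27.4% of all entries, and RUVBL2 at 2 genes and 6.59% of all entries. RMRP and VTRNA1-2 had a peak in all 4 Huh7 lists, and so in all 9 lists, where 4.78% of all entries had a peak in all 4 and 2.95% in all 9. RPPH1, RN7SL1 and RN7SL2 lacked RUVBL2 alone. RN7SK lacked RUVBL2 and YY1. VTRNA1-1 had INO80 alone in Huh7, and VTRNA1-3 had MCRS1 alone. The lists of MCRS1 and RUVBL2 hold 23425 and 12936 peaks in HepG2 but 6020 and 3322 in Huh7, and the part that list length plays in an empty cell was not tested.

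The Huh7 counts can also be read against other entries that had all 5 HepG2 factors. INO80 had a Huh7 peak at 7 of the 8 genes and at 89% of those 5129 entries, so the 8 genes lay near their background. MCRS1 had one at 7 genes and 63.8% of the entries, RUVBL2 at 2 genes and 43.7%, and YY1 at 5 genes and 92.5%. YY1 was the factor whose count at the 8 genes lay furthest below that background, as a difference of shares. Of those 5129 entries, 3694 are protein-coding genes, counted over their whole length, while the 8 genes are short and non-coding. The YY1 list of HepG2 came from ENCODE reads and holds 39293 peaks, against 21554 in Huh7. The parts that list source, list length and gene type play in these counts were not tested.

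The surroundings of the genes differ, because RN7SK, RMRP, RPPH1 and RN7SL1 each have a coding start before them on the opposite strand. The same peak can cover that coding promoter. RN7SL1 also lies within the annotated span of its coding neighbour, RPS29. GSTA4, a glutathione transferase gene, starts 337 bp before RN7SK on the opposite strand. CCDC107, a coiled-coil protein gene, starts 273 bp before RMRP, PARP2, a DNA repair enzyme gene, starts 224 bp before RPPH1, and RPS29 starts 200 bp before RN7SL1. These are the coding starts nearest to each RNA gene, and distances to coding genes below use them. Some peak centres lie nearer to another annotated start of the same coding gene. At RN7SK the INO80 peak of HepG2 was centred 18 bp from another GSTA4 start, and 96 bp from the start used here. No coding start lies within 1 kb of the other 4 genes. The nearest is NEMF at 10028 bp for RN7SL2 and ZMAT2 at 10828 bp, 18478 bp and 25711 bp for VTRNA1-1, VTRNA1-2 and VTRNA1-3. In HepG2 each factor had a peak at 4 of 4 genes of either kind. In Huh7 the 4 genes beside a coding start had INO80 at 4, MCRS1 at 4, RUVBL2 at 1 and YY1 at 3, and the 4 genes away from one had INO80 at 3, MCRS1 at 3, RUVBL2 at 1 and YY1 at 2.

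The background depends on that setting. Among 571 non-coding entries of at most 400 bp with a coding start within 1 kb, the 5 HepG2 factors met at 18.6% and all 9 lists at 9.11%. Single factors had a peak at 57.1% of them for INO80, 54.1% for MCRS1, 22.9% for RUVBL1, 35.9% for RUVBL2 and 55.2% for YY1 in HepG2, and at 44.1% for INO80, 26.1% for MCRS1, 18% for RUVBL2 and 49.7% for YY1 in Huh7. Among 13082 non-coding entries of the same length with no coding start within 1 kb, the 5 HepG2 factors met at 0.596% and all 9 lists at 0.29%. The 4 genes away from coding starts, RN7SL2 and the vault genes, all belonged to that 0.596%. Single factors had a HepG2 peak at 3.31% of those entries for INO80, 3.2% for MCRS1, 1.04% for RUVBL1, 1.73% for RUVBL2 and 4.37% for YY1, and a Huh7 peak at 1.8% for INO80, 0.894% for MCRS1, 0.726% for RUVBL2 and 2.84% for YY1. For RN7SK, RMRP, RPPH1 and RN7SL1, occupancy of the RNA gene and of the neighbouring coding promoter cannot be told apart from presence alone.

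**Figure D2:**
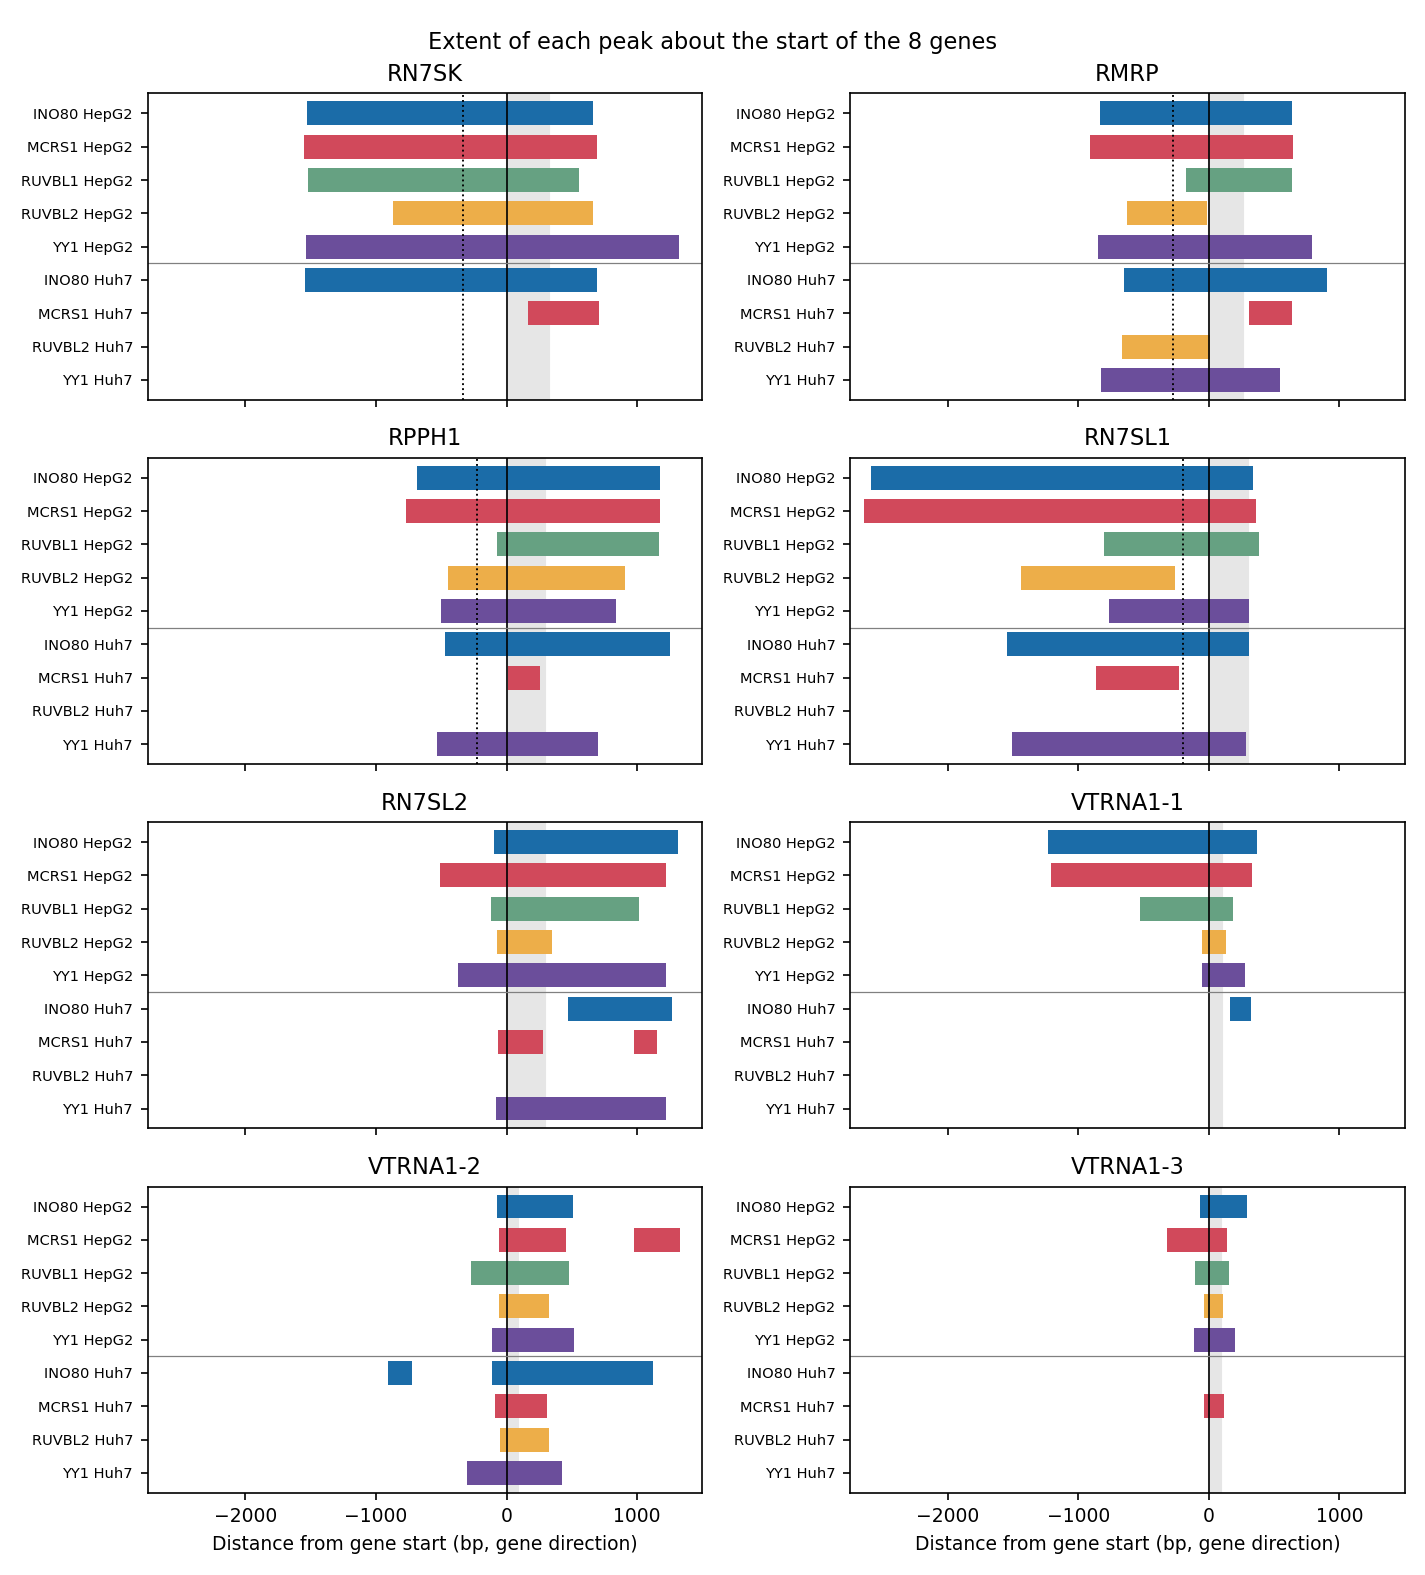
Extent of each peak about the start of each gene (x axis, distance in bp in the direction of the gene), with 1 row per list, HepG2 above the grey line and Huh7 below it; grey bands are the genes, solid lines their starts and dotted lines a coding start within 1 kb. HepG2 peaks of INO80, MCRS1, RUVBL1 and YY1 cover all 8 starts, whereas RUVBL2 peaks in HepG2 stop short of RMRP and RN7SL1.

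RN7SK, the scaffold of the particle that restrains P-TEFb, carried wide peaks of all 5 factors in HepG2. They measured 2186 bp for INO80, 2244 bp for MCRS1, 2080 bp for RUVBL1, 1527 bp for RUVBL2 and 2858 bp for YY1, and each covered the whole gene. The YY1 peak (chromosome 6, 52858882 to 52861739) stood at percentile 99.5 of the widths in its own list and the RUVBL1 peak at percentile 97.9. Several of its peaks ended at nearly the same places. An upstream edge lay 1549 to 1523 bp before the start, within 26 bp, in 5 of 7 lists. A downstream edge lay within 44 bp of one another in 5 lists. Here and below, these are the largest sets of lists with edges within 50 bp, so some agreement is built in. Upstream of RPPH1, RN7SL1 and VTRNA1-1 such sets held 2 of 8, 2 of 8 and 2 of 6 lists. The INO80 peak was centred 433 bp before the start of RN7SK and 96 bp from that of GSTA4, while the YY1 peak was centred 109 bp before RN7SK and 228 bp from GSTA4.

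The INO80 peak at RN7SK had nearly the same extent in both lines, measuring 2186 bp in HepG2 cells and 2237 bp in Huh7 cells. The MCRS1 peak measured 2244 bp in HepG2, against 538 bp in Huh7, where it began 167 bp after the start and covered 49.1% of the gene. YY1, the widest of the HepG2 peaks here, had no Huh7 peak nearer than 66048 bp, and the nearest RUVBL2 peak lay 710987 bp away. INO80 and MCRS1 without YY1 and RUVBL2 was the state in Huh7 of 1.05% of the 5129 entries with all 5 HepG2 factors. Of 14163 entries with INO80 in Huh7 and YY1 in HepG2, 10.2% had no YY1 peak in Huh7.

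RMRP, the RNA of RNase MRP, was one of the 2 genes with a peak in every list. Its HepG2 peaks measured 1476 bp for INO80, 1559 bp for MCRS1, 818 bp for RUVBL1, 607 bp for RUVBL2 and 1632 bp for YY1, and its Huh7 peaks 1553 bp for INO80, 327 bp for MCRS1, 670 bp for RUVBL2 and 1376 bp for YY1. Both RUVBL2 peaks lay on the side of CCDC107. The one in HepG2 ended 18 bp before the start of RMRP and was centred 48 bp from the start of CCDC107, and the one in Huh7 covered 2.27% of RMRP and was centred 56 bp from CCDC107. The RUVBL1 peak of HepG2 lay on the other side, centred 230 bp after the RMRP start and 503 bp from that of CCDC107. The MCRS1 peak of Huh7 lay downstream of the gene, between 310 and 636 bp from the start, and 4 lists had their downstream edge within 10 bp of one another, 636 to 646 bp from the start.

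RPPH1, the RNA of RNase P, had HepG2 peaks of 1856 bp for INO80, 1946 bp for MCRS1, 1240 bp for RUVBL1, 1356 bp for RUVBL2 and 1340 bp for YY1. Its Huh7 peaks measured 1726 bp for INO80, 240 bp for MCRS1 and 1230 bp for YY1. As at RMRP, the RUVBL1 peak lay mostly after the start, from 72 bp before it to 1167 bp after it, and its centre lay 548 bp from the RPPH1 start and 772 bp from that of PARP2. The MCRS1 peak of Huh7 was the sole peak at any of the 8 genes to lie wholly inside the gene as placed here, covering 82.2% of it. The nearest RUVBL2 peak in Huh7 lay 266683 bp away.

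The signal recognition particle genes share their transcript but not their flanks, and their peaks differed in width and position. RN7SL1 and RN7SL2 were identical at 98.7% of positions within the gene (293 of 297) and at 53.6% over the 250 bases before the start. At RN7SL1 the HepG2 peaks measured 2929 bp for INO80, 3004 bp for MCRS1, 1185 bp for RUVBL1, 1185 bp for RUVBL2 and 1071 bp for YY1, and the Huh7 peaks 1853 bp for INO80, 641 bp for MCRS1 and 1797 bp for YY1. The INO80 and MCRS1 peaks of HepG2 were the widest of their kind at any of the 8 genes and reached 2591 and 2642 bp before the start, over RPS29. The RUVBL2 peak of HepG2 ended 258 bp before the RN7SL1 start and the MCRS1 peak of Huh7 ended 228 bp before it, so neither touched the gene. RUVBL1 and YY1 peaks of HepG2 were centred 13 and 29 bp from the RPS29 start.

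RN7SL2 has no coding start nearby, and its HepG2 peaks lay over and after the gene. They measured 1410 bp for INO80, 1733 bp for MCRS1, 1136 bp for RUVBL1, 421 bp for RUVBL2 and 1591 bp for YY1, each covering the whole gene. The INO80, RUVBL1 and RUVBL2 peaks of HepG2, with the YY1 peak of Huh7, began between 122 and 73 bp before the start. In Huh7 the INO80 peak of 799 bp began 468 bp after the start and left the gene uncovered. MCRS1 had a peak of 349 bp over 94.3% of the gene and another of 179 bp centred 1062 bp after the start, and YY1 one of 1304 bp over the whole gene. The nearest RUVBL2 peak in Huh7 lay 227959 bp from RN7SL2 and 12370 bp from RN7SL1.

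The 3 vault genes lie one after another, resemble each other closely and yet had unequal occupancy. VTRNA1-1 and VTRNA1-2 were identical at 81.8% of aligned positions, VTRNA1-1 and VTRNA1-3 at 83%, and VTRNA1-2 and VTRNA1-3 at 87.8%, and over the 250 bases before the start identity was 83.7%, 84.3% and 83.5% in the same order of pairs. VTRNA1-1 had HepG2 peaks of 1597 bp for INO80, 1543 bp for MCRS1, 711 bp for RUVBL1, 189 bp for RUVBL2 and 326 bp for YY1. VTRNA1-2 had HepG2 peaks of 582 bp for INO80, 513 bp for MCRS1, 746 bp for RUVBL1, 381 bp for RUVBL2 and 631 bp for YY1. VTRNA1-3 had the narrowest set in HepG2, with 359 bp for INO80, 456 bp for MCRS1, 261 bp for RUVBL1, 149 bp for RUVBL2 and 313 bp for YY1. Each of these HepG2 peaks covered its vault gene whole, and a second MCRS1 peak of 348 bp lay 979 to 1326 bp after the start of VTRNA1-2.

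In Huh7 the vault genes differed in how many factors they had. VTRNA1-2 had peaks of all 4 factors, of 1233 bp for INO80, 402 bp for MCRS1, 373 bp for RUVBL2 and 731 bp for YY1, all over the whole gene, and a second, narrow INO80 peak ended 727 bp before the start. The wider INO80 peak was wider in Huh7 than its HepG2 counterpart at this gene (582 bp in HepG2, against 1233 bp in Huh7), as was the YY1 peak (631 bp in HepG2, against 731 bp in Huh7). At VTRNA1-1 the single Huh7 peak was an INO80 peak of 162 bp that began 162 bp after the start and did not touch the gene. At VTRNA1-3 it was an MCRS1 peak of 155 bp over the whole gene. For the other factors the nearest Huh7 peak was the one at VTRNA1-2, 7344 to 7603 bp from VTRNA1-1 and 6110 to 6908 bp from VTRNA1-3. At VTRNA1-2 the upstream edges of 5 lists fell within 45 bp of one another, 92 to 47 bp before the start.

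Relative to their own lists, peaks at RN7SK were among the wide ones in HepG2 and peaks at VTRNA1-3 were not. In HepG2 the median width over the 8 genes was 1536 bp for INO80 (list median 666 bp), 1646 bp for MCRS1 (658 bp), 977 bp for RUVBL1 (279 bp), 514 bp for RUVBL2 (335 bp) and 1205 bp for YY1 (287 bp). In Huh7 the median was 1553 bp over 7 genes for INO80 (438 bp), 349 bp over 7 genes for MCRS1 (273 bp) and 1304 bp over 5 genes for YY1 (391 bp), and the 2 RUVBL2 peaks measured 373 and 670 bp (254 bp). All 8 YY1 peaks of HepG2 were wider than their list's median. Peaks near coding starts are wider, with a median of 802 bp in that list, and among them the YY1 peaks at VTRNA1-1, VTRNA1-2 and VTRNA1-3 stood at percentiles 18.5, 37.5 and 17.6 and the one at RN7SK at percentile 98.8. At VTRNA1-3 the RUVBL2 peak of HepG2 stood at percentile 5.34 of its list and the INO80 peak at percentile 34.3.

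**Figure D3:**
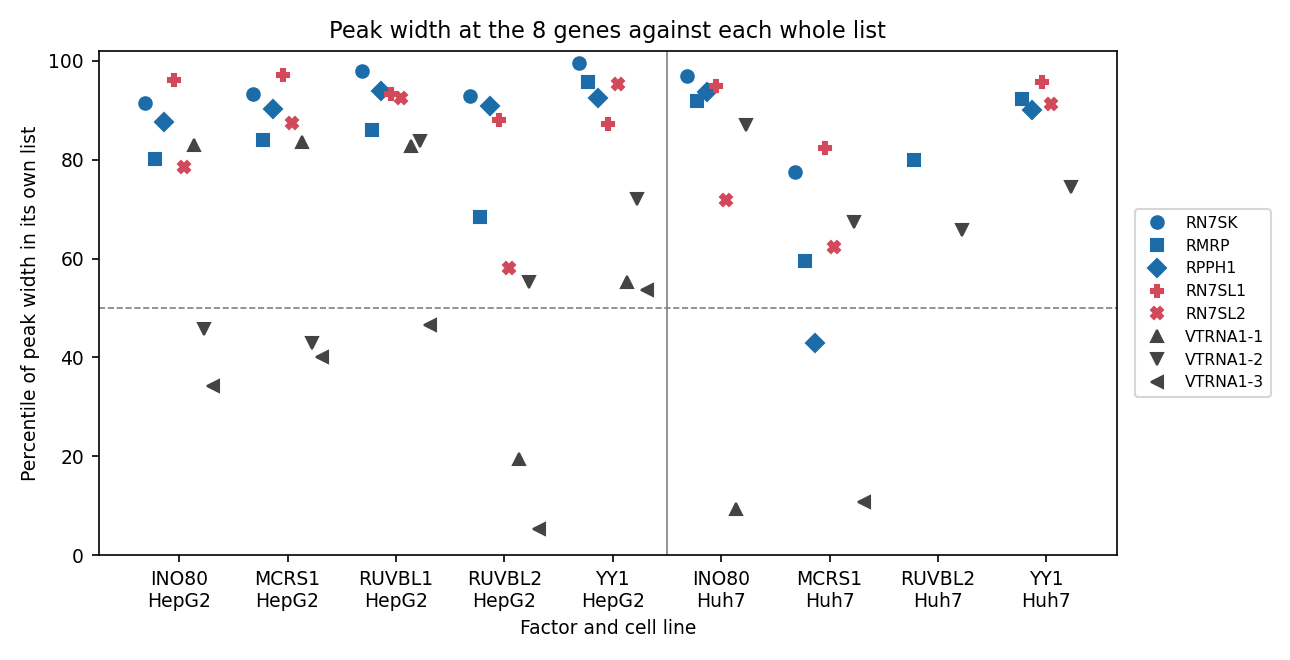
Percentile of the width of the widest peak at each gene within its own list (y axis) by factor and line (x axis, HepG2 left of the grey line and Huh7 right of it), with the list median as a dashed line. RN7SK stands at percentile 91.4 or higher in all 5 HepG2 lists and in the INO80 list of Huh7, and VTRNA1-3 stands lowest in every HepG2 list.

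Between the lines, MCRS1 showed the most uniform difference in width. Its peaks were wider in HepG2 than in Huh7 at 7 of the 7 genes with a peak in both, and the median ratio of HepG2 to Huh7 width was 4.69, where the medians of the whole lists stood at a ratio of 2.41. INO80 peaks were wider in HepG2 at 4 genes and narrower at 3, with a median ratio of 1.08 and a list ratio of 1.52. YY1 peaks were wider at 3 genes and narrower at 2, with a median ratio of 1.09 and a list ratio of 0.734, and the 2 RUVBL2 pairs went in opposite directions. The list ratios depend on which peaks are counted. Among peaks within 1 kb of a coding start, the medians in HepG2 and Huh7 were 1032 and 293 bp for MCRS1 and 1012 and 554 bp for INO80. They were 802 and 588 bp for YY1, wider in HepG2, and 451 and 265 bp for RUVBL2.

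Some of the genes have many near copies, which limits where reads can be placed. No 32-base window of RN7SL1 and 4.51% of those of RN7SL2 occurred once in the genome, and 11.8% of those of RN7SK did. In RMRP, RPPH1 and VTRNA1-2 all windows occurred once, and in VTRNA1-1 and VTRNA1-3 94.1% and 94.8% did. The 1 kb before the start was unique at 100% of windows for RN7SK, RMRP, RPPH1 and RN7SL2 and at 89% for RN7SL1. Most peaks therefore reached into sequence found once: windows found once made up 51.7% to 85.2% of each RN7SK peak and 63.3% to 83.3% of each RN7SL1 peak. At RN7SL2 the share was lowest in the narrow peaks over the gene, with 32.6% for RUVBL2 in HepG2 and 19.5% for MCRS1 in Huh7. Peaks at VTRNA1-2 also reached into copied sequence beside the gene. In HepG2 the shares there were 55.7% for INO80, 58.7% for YY1 and 61% and 35% for MCRS1. The other VTRNA1-2 peaks stood at 68.9% to 80.9%. The part of copied reads in those peaks was not tested. Huh7 peaks beside RN7SL2 that did not touch it, of 179 bp for MCRS1 and 799 bp for INO80, stood at 100%.

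**Figure D4:**
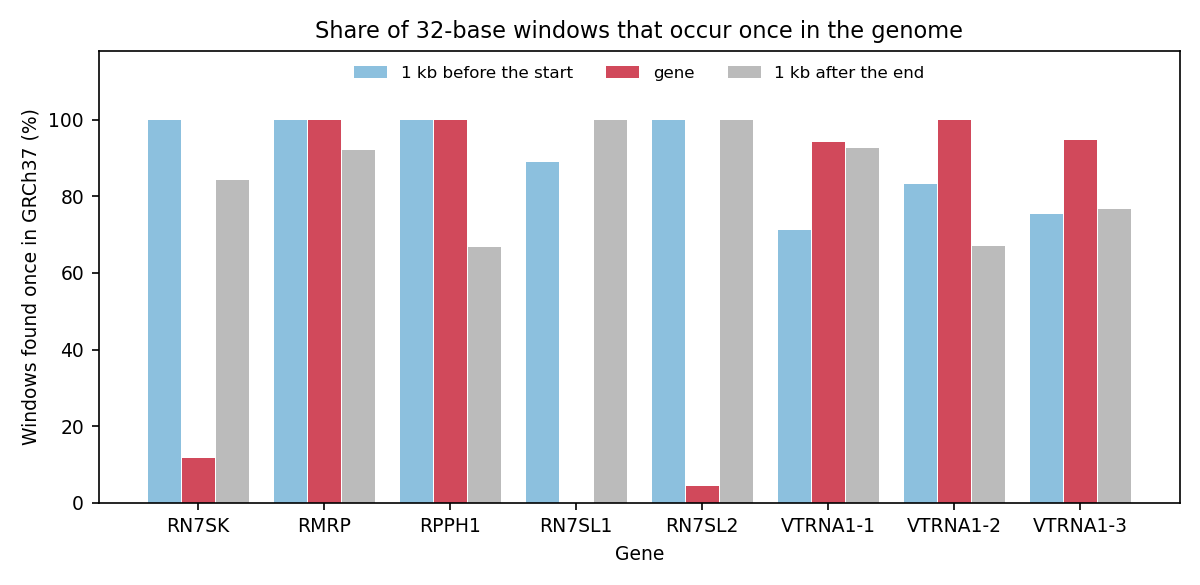
Share of 32-base windows that occur once in GRCh37 (y axis, percent) for the 1 kb before the start, the gene and the 1 kb after the end of each of the 8 genes. The gene bars are 11.8% for RN7SK, 0% for RN7SL1 and 4.51% for RN7SL2, and at least 94.1% for the other genes.

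Of the motifs searched about the starts, TGACGT and TATAA were each found at more than 4 of the 8 genes. Windows from 250 bases before to 50 after each start were read on both strands. TGACGT occurred at 6 of the 8 genes and in 5.51% of the windows of all entries. It stood 52 bases before the start of each of the 3 vault genes, as shown above, and 237 bases before the matched start of RPPH1. VTRNA1-2, with all 4 Huh7 factors, and VTRNA1-1 and VTRNA1-3, with 1 each, had the hexamer at the same position. The part of the hexamer in their occupancy was not tested. AANATGGC, a form of the YY1 recognition sequence, occurred at RPPH1 alone and in 7.03% of all windows, while YY1 peaks of HepG2 lay at 8 of 8 genes.

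Of the other motifs, TATAA occurred at 5 of the 8 genes and in 30.9% of all windows. ATGCAAAT, the octamer bound by OCT1, occurred at RMRP and RPPH1 and in 2.25% of all windows, 217 and 117 bases before the start. GGGCGG, the GC box, occurred at 3 of the 8 genes and in 26.5% of all windows. At RPPH1 it stood 17 bases before the matched start, a place that may lie within the gene. The B box core, 10 letters without the leading G of the full box and searched in the first 100 bases of the gene on its own strand, occurred at all 3 vault genes and at 0.118% of all entries. The full B box occurred there at VTRNA1-2 alone and at 0.0372% of all entries. TGACGT and the B box core were added after the sequences had been read, and the TATAA and TTATAA runs in capitals above can overlap on the 2 strands.

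Other genes read by RNA polymerase III were less evenly covered in HepG2 than the 8 genes, by counts that were not tested. Of 13 such genes, among them the Y RNA and U6 genes, 10 had INO80 in HepG2, 9 had MCRS1, 9 had RUVBL1, 3 had RUVBL2 and 11 had YY1, and 3 had all 5. In Huh7, 11 had INO80, 7 had MCRS1, 5 had RUVBL2 and 9 had YY1. The genes with a peak in all 9 lists were RNU6ATAC, the U6 of the minor spliceosome, and the neighbouring U6 genes RNU6-7 and RNU6-8, which shared peaks. None of the 13 lacked peaks in all lists. Of all entries, 7.96% had all 5 HepG2 factors, 2.95% had a peak in all 9 lists and 59.1% in none, and the single-factor shares are given above. RUVBL2 differed most between the sets, at 8 of 8 genes here and 3 of 13 there in HepG2, but at 2 of 8 and 5 of 13 in Huh7.

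**Figure D5:**
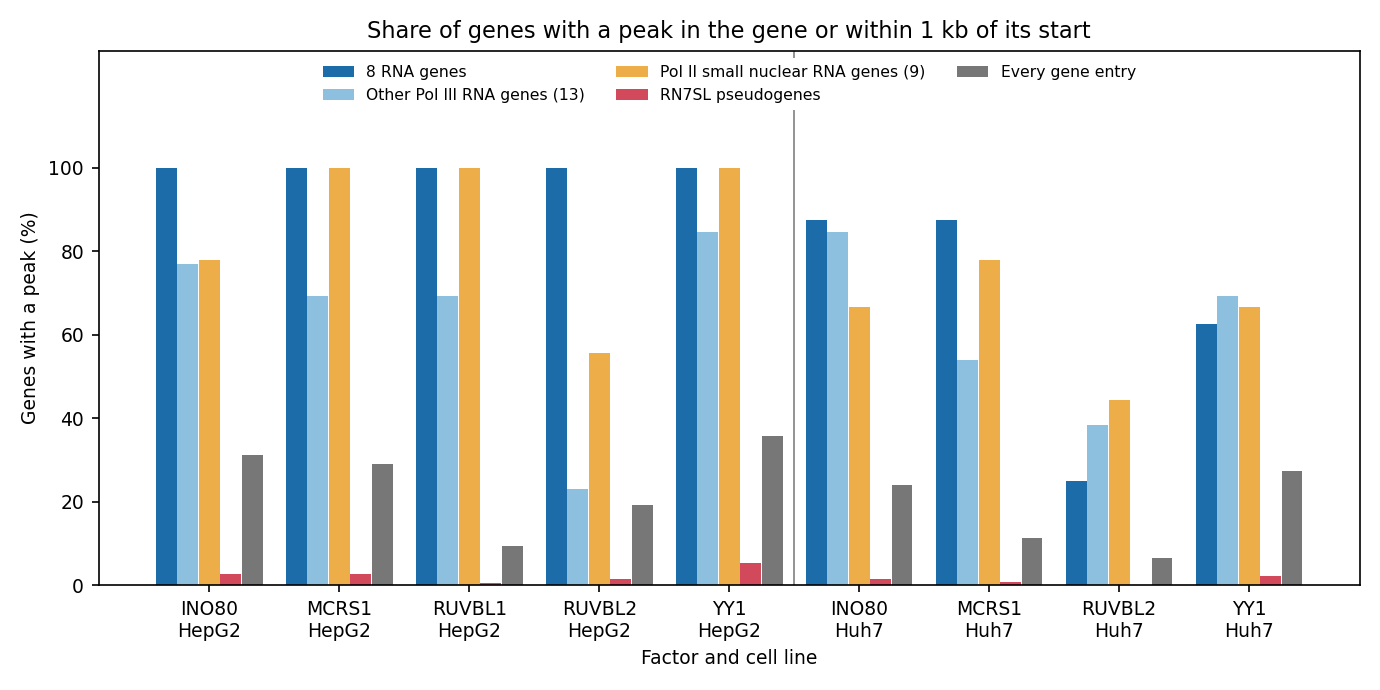
Percent of genes with a peak (y axis) by factor and line (x axis) for the 8 RNA genes, 13 other genes read by RNA polymerase III, 9 small nuclear RNA genes read by RNA polymerase II, 846 RN7SL pseudogenes and all gene entries, as bars from 0. The 8 genes stand at 100% in all 5 HepG2 lists, and the RN7SL pseudogenes at 5.32% or less in every list.

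Of 9 small nuclear RNA genes read by RNA polymerase II, 7 had INO80, 9 had MCRS1, 9 had RUVBL1, 5 had RUVBL2 and 9 had YY1 in HepG2, and RNU4-1, RNU4-2, RNU5E-1 and RNU7-1 had a peak in all 9 lists. In Huh7, 6 of the 9 had INO80, 7 had MCRS1, 4 had RUVBL2 and 6 had YY1. Of all entries, 31.3% had INO80, 29.1% MCRS1, 9.36% RUVBL1, 19.3% RUVBL2 and 35.7% YY1 in HepG2. The Huh7 shares were 24.1% for INO80, 11.3% for MCRS1, 6.59% for RUVBL2 and 27.4% for YY1. All 9 lists met at 2.95% of all entries, and at 9.11% of short non-coding entries with a coding start within 1 kb.

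Few of the copies scattered over the genome had a peak, and the share with no peak lay near that of other short non-coding entries. Of 292 RN7SK pseudogenes, 2 had INO80 in HepG2, 4 had MCRS1, 8 had YY1 and 0 had RUVBL1 or RUVBL2, and 283 had a peak in none of the 9 lists. Of 846 RN7SL pseudogenes, 22 had INO80 in HepG2, 22 had MCRS1, 4 had RUVBL1, 13 had RUVBL2 and 45 had YY1, and 783 had a peak in none. A peak in none of the lists was thus the state of 96.9% of RN7SK pseudogenes, 92.6% of RN7SL pseudogenes and 93% of the 13082 short non-coding entries with no coding start within 1 kb, which include 286 and 829 of these pseudogenes. YY1 in HepG2 lay at 5.32% of RN7SL pseudogenes and 4.37% of those entries, INO80 at 2.6% and 3.31%, and RUVBL1 at 0.473% and 1.04%. For RN7SK pseudogenes every HepG2 share lay below that of those entries. It was 0.685% against 3.31% for INO80, 1.37% against 3.2% for MCRS1 and 2.74% against 4.37% for YY1.

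Genes for the protein partners of these RNAs had peaks of INO80 and YY1 at most members in both lines and of RUVBL1 at fewer. Of 27 genes for proteins of the signal recognition particle, the 7SK particle, RNase P and MRP and the vault, with SSB, the La protein gene, HepG2 peaks lay at 25 for INO80, 26 for MCRS1, 9 for RUVBL1, 17 for RUVBL2 and 26 for YY1, and Huh7 peaks at 21 for INO80, 11 for MCRS1, 6 for RUVBL2 and 22 for YY1. These are coding genes, of which 68% had INO80, 63.1% MCRS1, 20.9% RUVBL1, 43.5% RUVBL2 and 72.6% YY1 in HepG2, and 53% INO80, 25.3% MCRS1, 15% RUVBL2 and 58.9% YY1 in Huh7. In the 7SK particle, 5 of 7 genes had a peak in all 9 lists, namely CCNT1, CCNT2, HEXIM1, HEXIM2 and MEPCE, where 6.75% of coding genes did. None of the 10 RNase P and MRP protein genes had RUVBL1 in HepG2 or RUVBL2 in Huh7. The shares of coding genes were 20.9% and 15%. RUVBL1 peaks of HepG2 lay at RMRP and RPPH1 themselves, and a difference from the protein genes was not tested. SRP54 was the single signal recognition particle gene of 6 in all 9 lists.

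The genes of the polymerase itself and of its initiation factors all had a peak in at least 1 list. Of all coding genes, 20.3% had a peak in none of the 9 lists and 6.75% in all 9. The shares of coding genes given above for each factor and line are the background of the counts that follow. Of 18 RNA polymerase III subunit genes, 16 had INO80, 17 had MCRS1, 8 had RUVBL1, 15 had RUVBL2 and 18 had YY1 in HepG2. In Huh7, 12 had INO80, 8 had MCRS1, 8 had RUVBL2 and 14 had YY1, and POLR2H and POLR3E had a peak in all 9 lists. Of 19 initiation factor genes, 19 had INO80, 19 had MCRS1, 8 had RUVBL1, 16 had RUVBL2 and 19 had YY1 in HepG2. In Huh7, 18 had INO80, 10 had MCRS1, 7 had RUVBL2 and 19 had YY1, and GTF3C3, SNAPC5 and ZNF143 had a peak in all 9. As a check of the labelled lines, 7 of 8 hepatocyte marker genes had an INO80 peak in HepG2 and 3 of 8 in Huh7, where 68% and 53% of coding genes did. For blood markers it was 1 of 4 in each line, and for endothelial markers 1 of 3 in HepG2 and 0 of 3 in Huh7. YY1 peaks of HepG2 lay at 7 of 8 hepatocyte, 3 of 4 blood and 2 of 3 endothelial markers, and those of Huh7 at 5, 0 and 0. These counts describe occupancy and not expression. APOB, the apolipoprotein B gene, had a peak in all 9 lists and FGB, the fibrinogen beta chain gene, in none.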

How the data were processed

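The labels describe 29 libraries in 14 groups, and groups were taken from library titles. Tools named in the submitters' processing notes are Bowtie2, deepTools, bedtools, SAMtools and MACS2, without versions, and the builds are dm3 and hg19. Each factor in each line has 1 deposited list of peak positions, and pooling of libraries before peak calling was not given in the sources used here. The table of fly tags was not used here. Gene entries are those of GENCODE release 44 on GRCh37, which has the hg19 sequence. RN7SL1 was placed by its match to RN7SL2 (98.7% identity) and RPPH1 by its match to the pseudogene RPPH1-3P (77.8%), with blastn 2.17.0, and the neighbouring genes RPS29 and PARP2 were checked against RefSeq.

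Overlaps were computed with Python 3.11.15, numpy 2.4.6 and pandas 2.3.3 and checked on simulated peaks. A peak's percentile is the share of its own list that is narrower or as wide. The 8 genes and all gene lists were chosen with earlier results of these data known. The rule for named genes took the 8 genes, coding genes starting within 1 kb of them, and from each further list the genes with a peak in none or all of the 9 lists. Because lists hold no replicates, no test was run. The alternatives changed the window, the overlap needed, the peaks kept and the entries counted. Backgrounds of short non-coding entries were added after seeing the data. The 3 small nuclear RNA genes and the endothelial marker not matched by name were left out. The start sequences of RN7SL1 and RN7SL2 are not reported here.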

Additional observations from a re-analysis of the deposited data

How the results depend on the processing

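The counts depended on how many of the narrower peaks were kept. With the 3322 widest peaks of each list, the counts out of 8 in HepG2 were 3 for INO80, 4 for MCRS1, 3 for RUVBL2 and 4 for YY1, and RUVBL1 kept its count of 8. RUVBL1 lost the smallest part of its peaks, because it had 5518 in HepG2 before this cut. The other HepG2 factors had 12936 (RUVBL2) to 39293 (YY1). The kept count of RUVBL1 thus met a milder cut than the other counts. The shares of all entries under that setting were 7.93% for INO80, 7.85% for MCRS1, 7.28% for RUVBL2, 8.2% for YY1 and 6.31% for RUVBL1. All 5 HepG2 factors then met at 2 genes, all 4 Huh7 factors at 1 and all 9 lists at 0. With the wider 50% of each list, all 5 HepG2 factors met at 5 genes and all 9 lists at 1. Shares of all entries also fell, in HepG2 to 22.7% for INO80, 21.9% for MCRS1, 5.43% for RUVBL1, 12.7% for RUVBL2 and 28.6% for YY1. In Huh7 they fell to 15.3% for INO80, 6.52% for MCRS1, 3.69% for RUVBL2 and 19.1% for YY1. When a peak had to cover 50% of the gene, MCRS1 in Huh7 had 4 genes and RUVBL2 in Huh7 had 1, and all 9 lists and all 4 Huh7 lists met at 1 each. With a window of 250 bp, and likewise with the gene body only, all 9 lists met at 1 gene and all 4 Huh7 lists at 1. With 250 bp the Huh7 shares of all entries were 22.6% for INO80, 10.3% for MCRS1, 5.96% for RUVBL2 and 26.1% for YY1. With the gene body only they were 21.1%, 9.05%, 5.28% and 24.8% in the same order. Shares of all entries are not given for 50% cover or for factors meeting under these settings. Whether the 8 genes fell more than all entries was not tested. The other 67 values of the counts out of the 8 genes stayed within 1.5 times the count given above. Per gene, the number of lists fell by more than that with the 3322 widest peaks, to 5 for RN7SL2, 1 for VTRNA1-1, 4 for VTRNA1-2 and 1 for VTRNA1-3, and with the wider 50% to 1 for VTRNA1-3. No paired analysis was possible because each factor and line has 1 list, and for the same reason no library could be left out. Read depth limits a narrow or missing peak by an unknown amount.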

Other observations

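VTRNA2-1, a vault-related RNA gene on another part of chromosome 5 and named here after its values were seen, had no peak in any of the 5 HepG2 lists and a peak in all 4 Huh7 lists. Its Huh7 peaks measured 407 bp for INO80, 155 bp for MCRS1, 147 bp for RUVBL2 and 444 bp for YY1, and each covered the start. VTRNA1-1 and VTRNA1-3 had the opposite pattern, with 5 HepG2 lists and 1 Huh7 list each.

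The Y RNA genes, which encode small cytoplasmic RNAs bound by the Ro protein, were also named after their values were seen. RNY1, RNY3, RNY4 and RNY5 each had a RUVBL1 peak over the start in HepG2. At RNY1, RNY3 and RNY4 these peaks measured 193, 205 and 233 bp and began 125, 134 and 132 bp before the start. The one at RNY5 measured 701 bp. RNY3 and RNY4 had no other HepG2 peak over the start, and RNY1 had a YY1 peak of 186 bp there.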
